A study of Mus musculus with 2 samples.

Results

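Keratocytes, the resident cells of the corneal stroma, were examined here in the subset with high Kera and low Fos. Cells were taken by their own unique molecular identifier (UMI) counts, scaled to the cell's total (CPM). A member had at least 5000 CPM of Dcn and 1000 CPM of Kera, less than 1000 CPM of Fos, less than 1500 CPM of Chil1 and less than 5000 CPM of Krt12. These limits took 989 of 7668 cell barcodes, 263 of 2513 in the wild-type library and 726 of 5155 in the heterozygote library. The levels of Dcn, Kera, Fos, Chil1 and Krt12 therefore chose the cells and are given below only as a description.

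The cells came from the cornea and limbal rim of a wild-type and a Becn1 +/- female mouse, littermates on the C57BL/6 background and 28 days old. Becn1 encodes beclin 1, part of the kinase complex with which autophagy begins. The dissected tissue had been freed of lens, retina, iris and trabecular network and of most conjunctiva, then dissociated with collagenase A followed by trypsin, and loaded on the 10x Genomics droplet platform. Each genotype was 1 animal and 1 library, so genotype, animal and library preparation cannot be told apart and no difference between cell groups or genotypes has a replicate check. In what follows, pairs of values are given with the wild-type library first and the heterozygote library second. Ratios are log2 ratios of summed UMIs with 0.5 added to each count. Intervals are exact 95% intervals and cover counting error only.

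Keratocytes are flat cells of neural crest origin that lie between the collagen lamellae of the stroma and secrete its matrix. Keratocan (Kera), lumican (Lum) and decorin (Dcn) are small leucine-rich proteoglycans that bind collagen fibrils and set their diameter and spacing, on which transparency depends. Fos belongs to the immediate early genes, which cells switch on within minutes of a stimulus, tissue dissociation included. Fgf21 encodes a hormone of the fibroblast growth factor family, known from the liver, and is a textbook target of ATF4, the transcription factor that is translated when amino acids run short or misfolded protein builds up.

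ATF4 binds a composite element shared with C/EBP factors, searched here as TGATGNAA on both strands of RefSeq promoter windows, which run from 250 bases before to 50 bases after a gene's start on build GRCm38.p6. The element was in 4.51% of all genes with a window. Of the 39 genes of the ATF4 stress response list, 32 had a window and 12 of these (37.5%) held the element. They were Aars, Asns, Chac1, Fgf21, Gars, Iars, Nupr1, Pck2, Pycr1, Slc7a11, Trib3 and Vldlr. The stretches below are 30 bases each in the orientation of the element, with the element in capitals. The first 5 belong to the genes that held the element and were at least 2-fold higher in the members than in Fos-high keratocytes, and Nupr1 is shown as one that held it and was at similar levels in both.
Fgf21 (chr7:45615611-45615640, plus strand): gcctggacggaTGATGCAAtgggggggtct
Chac1 (chr2:119351038-119351067, minus strand): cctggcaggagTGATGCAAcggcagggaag
Slc7a11 (chr3:50443661-50443690, minus strand): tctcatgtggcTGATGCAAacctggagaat
Asns (chr6:7693214-7693243, minus strand): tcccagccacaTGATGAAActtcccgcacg
Gars (chr6:55037960-55037989, minus strand): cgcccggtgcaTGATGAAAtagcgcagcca
Nupr1 (chr7:126625562-126625591, plus strand): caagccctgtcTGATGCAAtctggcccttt

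In Fgf21, which lies on the minus strand of chromosome 7, the element began at position -139 from the start of transcription and read against the gene's direction. The 250 bases before the start of Fgf21 (chr7:45615491-45615740, minus strand) are printed in the gene's own direction, so the element appears as its reverse complement, in capitals.
Fgf21 promoter: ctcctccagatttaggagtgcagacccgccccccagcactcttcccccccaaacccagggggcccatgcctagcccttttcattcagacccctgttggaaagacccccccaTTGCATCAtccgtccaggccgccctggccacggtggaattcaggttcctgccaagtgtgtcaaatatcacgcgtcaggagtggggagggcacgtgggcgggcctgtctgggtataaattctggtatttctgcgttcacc
The elements of Nupr1, Chac1 and Slc7a11 began at -110, -193 and -66. A match of letters is a description of the window and not evidence of binding. The immediate early genes held this element in 1 of 27 genes with a window, and the cholesterol synthesis genes in 1 of 14.

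The members made up 10.5% of wild-type barcodes (interval 9.30 to 11.7) and 14.1% of heterozygote barcodes (13.1 to 15.1). Among cells that passed the Dcn and Krt12 limits, they were 47.0% of 559 and 54.1% of 1342. The remaining cells of that kind were 149 and 218 Kera-high keratocytes with at least 1000 CPM of Fos (Fos-high keratocytes), 136 and 312 cells with less than 1000 CPM of Kera (Kera-low stromal cells), and 11 and 86 cells with high Chil1. The lowest barcode of the members held 8089 and 5434 UMIs and their medians were 12279 and 8362.5 UMIs and 2782 and 2250.5 genes. With a common minimum of 8089 UMIs per barcode the shares became 10.5% and 10.2%, and with a Krt12 limit of 1000 CPM 9.47% and 8.3%, so the order of the libraries turned around under both. The members' UMIs summed to 3320897 and 6352902, and the median mitochondrial share was 1.96% and 1.94%. The libraries shared 15 barcode sequences, 0 of which were members in both. The Scrublet caller marked 2 and 9 members as possible doublets.

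At the Fos limit, 28 wild-type members had 500 to 1000 CPM of Fos and 32 cells lay just above the limit, at 1000 to 1500 CPM. Their summed Fgf21 was 550 and 605 CPM and their Thbs1 was 1356 and 1142 CPM. In the heterozygote library 50 cells lay just inside and 22 just outside, with Fgf21 at 269 and 334 CPM and Thbs1 at 1026 and 738 CPM. At the Kera limit fewer cells were near, 5 and 21 inside at 1000 to 1500 CPM against 4 and 19 outside at 500 to 1000 CPM. In the wild-type library the Kera limit thus passed through a more sparsely filled range than the Fos limit. In the heterozygote library the cells just outside the limits were similar in number, 19 for Kera and 22 for Fos.

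The keratocyte markers Kera, Dcn, Lum, Fgf21 and Thbs1 were all measured in the members and summed to 41311 and 40059 CPM. Their sum was 184 and 243 CPM in Krt12-high epithelial cells (1649 and 3179 cells). These had at least 5000 CPM of Krt12 and less than 5000 CPM of Dcn. Since Kera and Dcn chose the members and Dcn also the epithelial cells, the contrast of these sums describes the choice. Lum, Fgf21 and Thbs1 chose no cells, but the marker list was chosen with earlier results of these data known, so their levels too are a description. Not every list of another cell type's markers was low. The trabecular or ciliary list summed to 8445 and 9307 CPM in the members against 6523 and 7860 CPM in Kera-low cells, nearly all of it the calcification inhibitor Mgp (4112 and 5123 CPM) and Angptl7 (4290 and 4140 CPM), with Myoc at 0 and 0.157 CPM. The limbal or scleral fibroblast list summed to 1896 and 1632 CPM against 4618 and 2208 CPM, mostly the matrix protein Dpt (1220 and 1185 CPM), while Pi16 was 2.11 and 0.787 CPM. The corneal endothelial list summed to 293 and 287 CPM, with Cdh2 at 0 and 0.315 CPM. The part of such cells in the results below was not tested. The 9 corneal epithelial markers summed to 1570 and 2183 CPM in the members and to 46601 and 45147 CPM in the epithelial cells, with none at 0. Krt12, which chose both groups of cells, is among them. Immune markers summed to 58.7 and 63.8 CPM with Ptprc, the common leukocyte antigen, at 0 in both. Vascular markers summed to 27.7 and 37.1 CPM with Cldn5, a tight junction protein, at 0 in both, and nearly all of this was Kdr, the VEGF receptor (23.2 and 29.6 CPM). Mast cell, Schwann cell, melanocyte and pericyte markers each summed to less than 3 CPM. The 8 proliferation markers summed to 35.5 and 42.2 CPM, against 250 and 223 CPM in the epithelial cells.

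**Figure D1:**
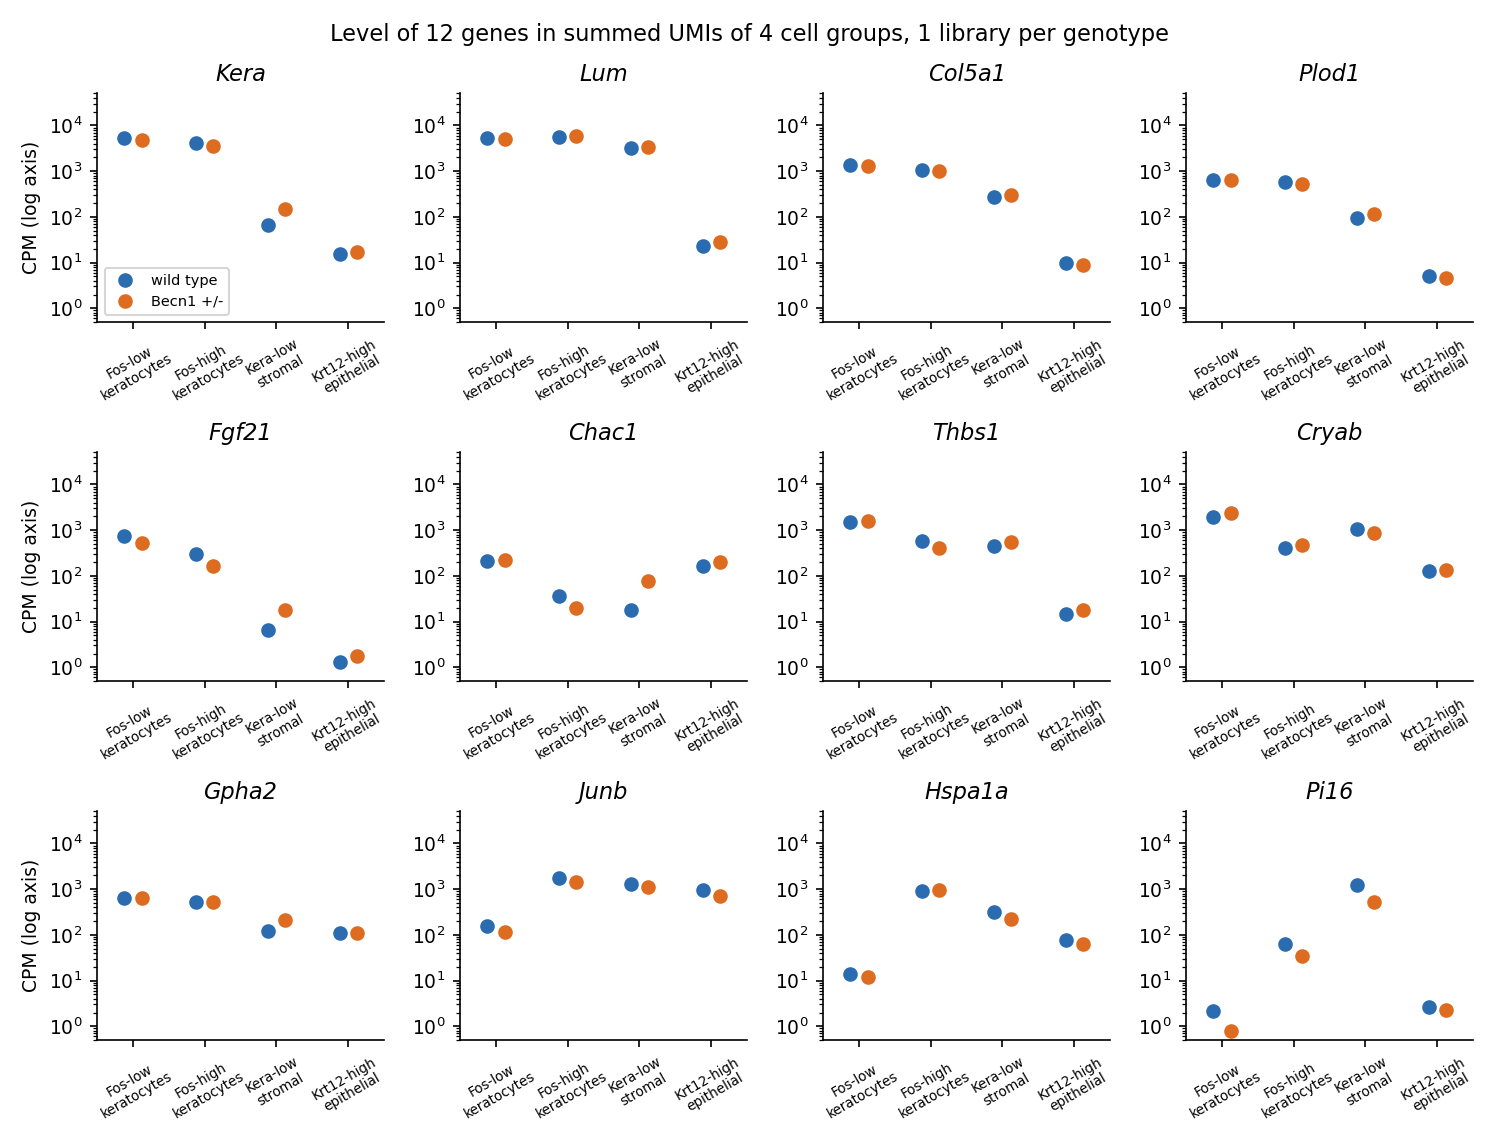
Levels of 12 genes in the summed UMIs of 4 cell groups, in CPM on a log axis, with blue points for the wild-type and orange points for the Becn1 +/- library. Fgf21 lies at 727 and 512 CPM in Fos-low keratocytes and at 1.33 and 1.79 CPM in Krt12-high epithelial cells, while Pi16 is at 2.11 and 0.787 CPM in Fos-low keratocytes and 1242 and 511 CPM in Kera-low stromal cells.

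Against all other barcodes, the highest ratios were those of Fgf21, Arsj, Kera, Syt6, Crabp1 and Adra2c, among others. Arsj, an arylsulfatase family member, was 83.7 and 87.8 CPM in the members and 2.5 and 2.79 CPM in the other barcodes. The retinoic acid binding protein Crabp1 was 199 and 159 against 5.52 and 6.28 CPM. These values come from the same cells that the limits chose and describe them.

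The first comparison set the members beside Kera-low stromal cells, the other Dcn-high cells of the dissected rim. Kera itself, used for the choice, was 5404 and 4722 CPM in the members and 67.7 and 148 CPM in the Kera-low cells. Of 4401 measured genes (mean of at least 20 CPM over the compared groups), 134 (3.04%) were at least 2-fold higher in the members in both libraries and 328 (7.45%) at least 2-fold lower. With the trimmed mean of M values (TMM) scaling these became 236 and 251, because it raised every ratio of this comparison by 0.276 and 0.283. The ratios over all measured genes had medians of -0.09 and -0.13, and 0.18 and 0.15 with TMM. Kera chose the cells, and the Fos limit held for the members but not for the Kera-low cells, so the ratios describe the 2 groups and test nothing. Without Fos, 29 immediate early genes had at least 20 CPM in the members, and 18 of these were at least 2-fold lower in both libraries. The part of the Fos limit in the other ratios of this comparison was not tested.

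The small leucine-rich proteoglycans divided between the groups. Lum was 5226 and 5144 CPM in the members and 3241 and 3447 CPM in Kera-low cells, and Dcn was 28408 and 28095 CPM in the members. Biglycan (Bgn) was 2748 and 2441 CPM in the members, with ratios to Kera-low cells under 2-fold in both libraries. Beside Kera and Dcn, which chose the cells, 5 members of the family had at least 20 CPM in the Fos-low keratocytes of both libraries, and 3 of these (Fmod, Prelp and Ogn) were at least 2-fold lower. Aspn, Omd and Ecm2 were measured only through the Kera-low cells, where they are high, and so could only come out lower.

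These 6 proteoglycans are known from the matrix of sclera, tendon, cartilage and bone. Fibromodulin (Fmod) was 535 and 440 CPM in the members against 2378 and 1823 CPM in Kera-low cells. Asporin (Aspn) was 4.22 and 3.15 CPM against 401 and 250 CPM, and osteomodulin (Omd) 9.33 and 5.04 against 226 and 139 CPM. These genes sit in clusters in the mouse genome. Dcn, Lum, Kera and Epyc follow each other on chromosome 10 (97479609 to 97682454, GENCODE M21 on GRCm38), and Ecm2, Aspn, Omd and Ogn on chromosome 13 (49504810 to 49624501). Of the chromosome 13 genes, Ogn was at least 2-fold lower in the members. Ecm2, Aspn and Omd were measured only through the Kera-low cells and could only come out lower. On chromosome 10 Lum was higher, and Kera was higher by the choice of the cells. Dcn, required of both groups, was 28408 and 28095 against 24277 and 25827 CPM. Epyc, below the level for measured genes, was 2.41 and 0 CPM against 55.1 and 37.4 CPM.

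Keratan sulfate, the sugar chain attached to keratocan and lumican in the cornea, is built by dedicated enzymes. Chst5, the corneal N-acetylglucosamine 6-O-sulfotransferase, was 286 and 340 CPM in the members and 46.9 and 113 CPM in Kera-low cells, ratios of 2.60 (2.24 to 3.0) and 1.58 (1.40 to 1.77). B3gnt7, which extends the chain, was 27.7 and 29.1 CPM against 1.49 and 5.40 CPM. The galactosyltransferase B4galt1 was 125 and 106 CPM against 87.1 and 90.6 CPM, a smaller difference.

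Collagen chains differed by type. Of 18 measured, 7 were at least 2-fold higher in the members (Col5a1, Col5a2, Col6a1, Col6a2, Col6a3, Col11a1 and Col27a1) and Col3a1 was at least 2-fold lower. Col8a1 and Col14a1 were also lower, but were measured only through the Kera-low cells. Col5a1, the type V chain that nucleates thin corneal fibrils, was 1398 and 1287 CPM against 278 and 300.2 CPM, ratios of 2.33 (2.18 to 2.49) and 2.1 (1.99 to 2.21). Col3a1, the type III chain of skin, vessels and sclera, was 184 and 204 CPM against 3435 and 1283 CPM. The main type I chain Col1a1 was higher by less than 2-fold (26010 and 22888 against 17474 and 14252 CPM). Plod1, a lysyl hydroxylase that prepares collagen for cross-linking, was 641 and 633 CPM against 92.3 and 116 CPM.

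**Figure D2:**
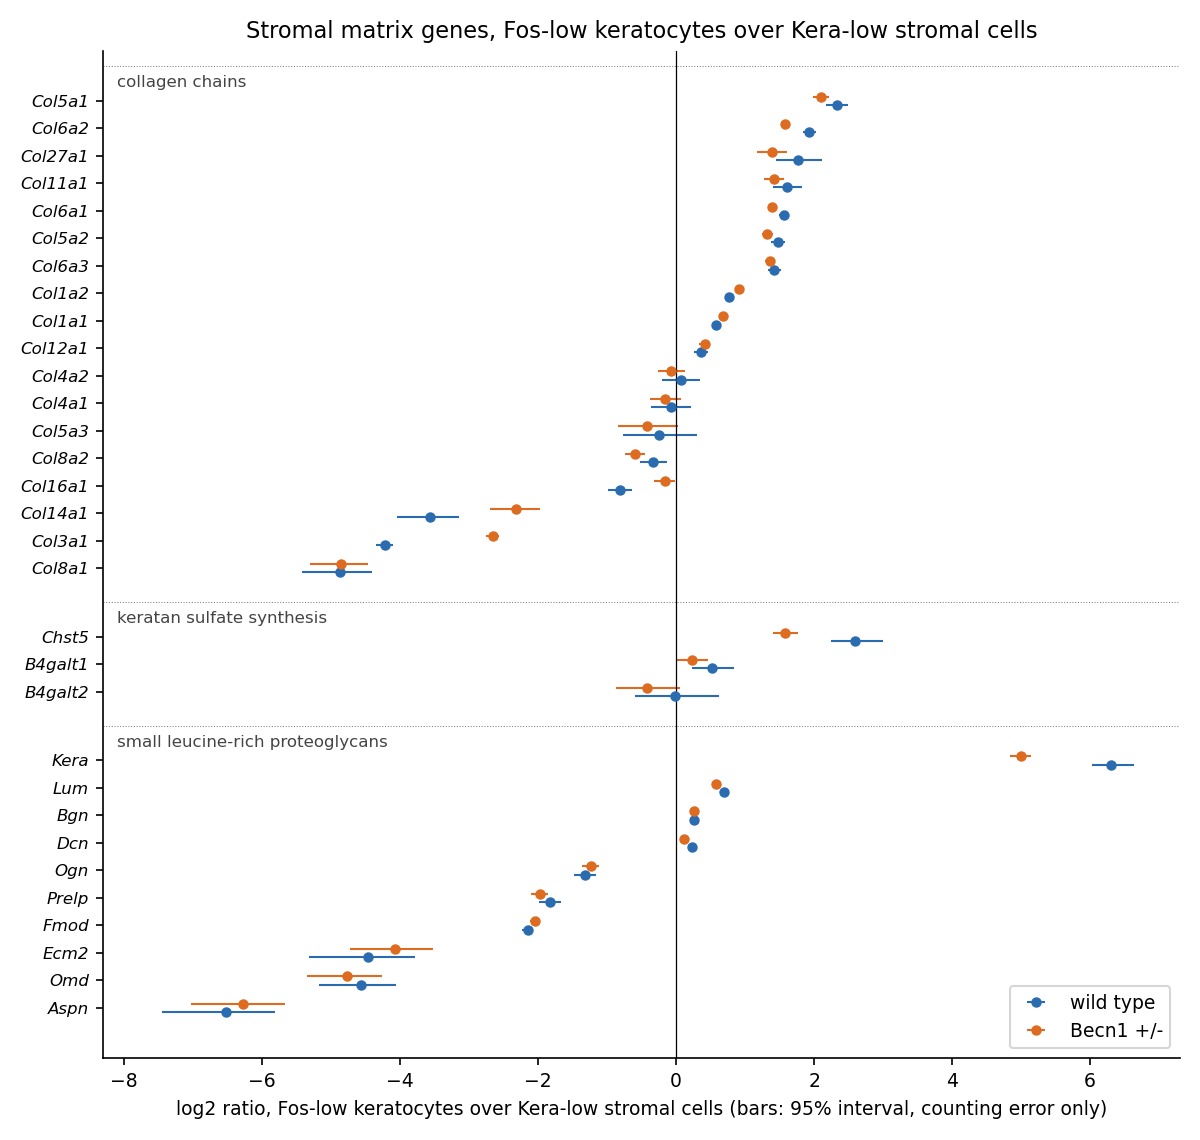
Log2 ratios of Fos-low keratocytes over Kera-low stromal cells for measured collagen chains, keratan sulfate enzymes and small leucine-rich proteoglycans, with blue points for the wild-type and orange points for the Becn1 +/- library and bars for the 95% interval of counting error. Col5a1 lies at 2.33 and 2.1 and Chst5 at 2.60 and 1.58, to the right of 0, and Aspn at -6.52 and -6.28, to the left.

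The 12 highest ratios over Kera-low cells included those of Kera, Fgf21, Ass1, Cd40, Col9a1, Ttc8, Sparcl1, A2m, Plod1, Psat1 and Fjx1. The receptor Cd40, known from antigen-presenting cells, was 162 and 160 CPM in the members against 3.72 and 21.6 CPM. The protease inhibitor A2m was 4068 and 3934 CPM against 152 and 718 CPM, and Sparcl1, a matricellular relative of SPARC, 573 and 607 against 54.3 and 105 CPM. Psat1, an enzyme of serine synthesis, was 189 and 186 against 13.4 and 35.8 CPM. Fgf21, Cd40 and Psat1 had under 20 CPM in the Kera-low cells of at least 1 library. In such a library they were measured through the members and could only come out higher. The Kera-low cells of the heterozygote library themselves had more Kera, A2m and Fgf21 (18.3 against 6.70 CPM) than those of the wild-type library. Outside the 12, Angptl7, an angiopoietin-like protein of the stroma, was 4290 and 4140 against 629 and 1303 CPM.

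The lowest ratios included genes known from fibroblasts outside the cornea. Pi16, a marker of adventitial fibroblasts, had 7 and 5 UMIs in all members (2.11 and 0.787 CPM) against 1242 and 511 CPM in Kera-low cells. Clec3b was 1.2 and 1.10 CPM against 920 and 325 CPM, and elastin (Eln) 2.41 and 2.68 against 1336 and 250 CPM. Penk, the enkephalin precursor, Wisp2, Fbln1, Has1, Igfbp6, Col8a1, Aspn, Cxcl10 and Mmp3 made up the rest of the 12 lowest. Of the 12, Pi16, Clec3b, Eln, Wisp2, Col8a1, Aspn and Cxcl10 had under 20 CPM in the members of at least 1 library. They were ranked through the Kera-low cells, where they are high, and so could only come out lower. Igfbp6 and Mmp3 had at least 20 CPM in the members of both libraries. Myoc, known from the trabecular meshwork, had 0 UMIs in wild-type members, which allows up to 0.903 CPM, and 0.157 CPM in heterozygote members, against 100 and 39.5 CPM in Kera-low cells.

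Members of other groups were lower than in Kera-low cells. Of 6 cytokines and chemokines with at least 20 CPM in the members, 2 (Cxcl1 and Ccl7) were at least 2-fold lower, and of 8 such matrix proteases and inhibitors 4 were (Mmp3, Timp1, Timp3 and Adamts1). A further 5 cytokines and 1 protease were measured only through the Kera-low cells. Mmp3, stromelysin 1, was 116 and 37.0 CPM against 2794 and 2866 CPM, and the inhibitor Timp3 41.6 and 38.9 CPM against 628 and 466 CPM. In contrast, 14 of 14 measured cholesterol synthesis genes had ratios above 0 in both libraries, 4 of them past 2-fold. Of these 14, 11 also had at least 20 CPM in the Kera-low cells, and 2 of the 11 were past 2-fold. Insig1, which holds back the sterol sensor, was 215 and 184 CPM against 53.6 and 104 CPM.

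The second comparison set the members beside Fos-high keratocytes of the same libraries, that is, 2 groups of Kera-high cells separated by Fos. Fos was 185 and 133 CPM in the members and 6411 and 7350 CPM in the Fos-high cells. Of 4374 measured genes, 68 (1.55%) were at least 2-fold higher in the members in both libraries and 177 (4.05%) at least 2-fold lower. TMM scaling raised every ratio by 0.227 and 0.238, moved the medians over all genes from -0.07 and -0.08 to 0.16 and 0.16, and changed the counts to 122 and 115. Higher genes were 27.8% of those past 2-fold, and 51.5% with TMM. Fos chose the cells, so this too is a description.

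Matrix genes were close in the 2 Kera-high groups. Lum was 5226 and 5144 CPM in the members and 5654 and 6017 CPM in Fos-high cells. Kera, required of both groups, was 5404 and 4722 against 4141 and 3534 CPM. No measured gene among 7 small leucine-rich proteoglycans, 4 keratan sulfate enzymes, 16 collagen chains and 17 collagen processing genes passed 2-fold in both libraries. Among them B4galt1, the galactosyltransferase, was higher in the members (125 and 106 against 71.8 and 57.0 CPM). The 7 proteoglycans include Kera and Dcn, which chose both groups, and are 5 without them.

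Many immediate early genes were lower. Fos, which chose the cells, belongs to this list. Without it, 29 genes had at least 20 CPM in the members, and 19 of these were at least 2-fold lower in both libraries. Zfp36, Egr2 and Per1 were also lower, but had under 20 CPM in the members of at least 1 library. Zfp36, which encodes an RNA-binding protein that shortens cytokine transcripts, was 18.4 and 26.0 CPM against 692 and 767 CPM. Junb, a partner of Fos, was 156 and 115 CPM against 1791 and 1470 CPM, and the nuclear receptor Nr4a1 was 83.7 and 74.1 against 1162 and 1113 CPM. The list was not uniform. Jund, Fosl1, Myc, Ctgf and Ier5 had ratios above 0 in both libraries, and Jund, the Jun family member usually present in resting cells, was 1074 and 1016 CPM against 668 and 496 CPM.

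Of 27 immediate early genes with a promoter window, Egr2 and Zfp36 held a CArG box, the element of serum response factor, which was in 1.81% of all genes with a window. The cAMP response element TGACGTCA was in 4 of the 27 (Btg2, Dusp1, Maff and Ppp1r15a) and in 2.03% of all genes with a window. Zfp36 is shown as the immediate early gene with the lowest ratios among those that held a CArG box, which is in capitals.
Zfp36 (chr7:28379267-28379296, minus strand): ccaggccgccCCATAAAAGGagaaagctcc

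Of 11 heat shock genes with at least 20 CPM in the members, 3 (Hsph1, Dnajb1 and Dnajb4) were at least 2-fold lower. Hspa1a was measured only through the Fos-high cells. Hspa1a, the inducible HSP70, was 13.9 and 12 CPM in the members and 898 and 948 CPM in Fos-high cells, ratios of -6.00 (-6.47 to -5.60) and -6.30 (-6.66 to -5.98). Its near-identical neighbour Hspa1b was 1.2 and 2.36 against 30.3 and 27.3 CPM, and reads of these copies could have been split or lost in counting. Hspb1 (-0.08 and -0.03) and Bag3 (-0.09 and -0.13) were closest to 0, and TMM scaling put them above it.

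ATF4 targets were higher. Of 33 measured, 10 were at least 2-fold higher and 1 at least 2-fold lower, with median ratios of 0.55 and 0.72. Of the 33, 28 also had at least 20 CPM in the Fos-high cells, and 8 of these were higher; Chac1 and Slc7a11 were not among the 28. Fgf21 was 727 CPM (698 to 757) and 512 CPM (495 to 530) in the members and 300 and 164 CPM in Fos-high cells, ratios of 1.28 (1.15 to 1.41) and 1.64 (1.48 to 1.80). Chac1, which degrades glutathione, was 208 and 227 CPM against 37.1 and 19.5 CPM. The cystine transporter Slc7a11 was 69.9 and 69.4 against 22.0 and 12 CPM. These 3 genes carry the element shown above.

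The translation inhibitor Eif4ebp1 was 493 and 615 CPM in the members and 181 and 194 CPM in Fos-high cells. Psph, an enzyme of serine synthesis, was 108 and 138 against 35.7 and 38.4 CPM, and the leucine sensor Sesn2 was 78.9 and 77.3 against 25.9 and 23.2 CPM. Asns, asparagine synthetase, was 79.2 and 84.4 CPM against 39.1 and 33.8 CPM. Mthfd2, Slc7a5 and Gars completed the 10.

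Not all of the list was higher. Ddit4, an inhibitor of the growth kinase mTORC1, was 140 and 131 CPM in the members and 321 and 353 CPM in Fos-high cells. Ddit3, which encodes the stress factor CHOP, was 67.8 and 79.7 against 140 and 135 CPM. Transcript levels of Atf4 were 704 and 649 against 744 and 687 CPM, a difference that TMM scaling turned to the other side of 0. Among measured genes of the list with a promoter window, the 11 with the element had median ratios of 0.71 and 1.11, and the 18 without it 0.34 and 0.38. Both ranges overlapped, from -0.15 to 2.48 with the element and from -1.2 to 1.60 without it in the wild-type library. The 11 included Slc7a11 and Chac1, which set the upper end at 2.48. Both had under 20 CPM in the Fos-high cells of the heterozygote library, so there they could only come out higher. Medians without them were not taken. The endoplasmic reticulum chaperones, the other arm of the response to misfolded protein, had 0 of 16 measured genes past 2-fold.

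The 12 highest genes by the ranking rule held Chac1, Sesn2, Psph and Eif4ebp1 and 8 genes outside the list. Cryab, a small heat shock protein that is also a lens crystallin, was 1911 CPM (1864 to 1959) and 2368 CPM (2330 to 2406) in the members and 407 and 476 CPM in Fos-high cells. It thus differed in direction from the 12 measured genes of the heat shock list, of which 0 had a ratio above 0 in either library. With TMM scaling, Hspb1 and Bag3 of that list were above 0. Srxn1, which repairs peroxiredoxins, was 317 and 374 against 90.9 and 68.1 CPM. Gadd45a, a growth arrest gene, was 287 and 283 against 55.2 and 72.7 CPM. Nav2, Fjx1, Ttc8, Gm13889 and the fibronectin receptor subunit Itga5 were the others.

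Thbs1, thrombospondin 1, an inhibitor of angiogenesis and an activator of TGF-beta, was 1545 and 1585 CPM in the members and 569 and 408 CPM in Fos-high cells, ratios of 1.44 (1.35 to 1.53) and 1.96 (1.86 to 2.06). Its level in Kera-low cells was 462 and 558 CPM. Foxc1, a transcription factor required for the anterior segment to form, was 61.1 and 57.9 CPM in the members against 23.5 and 22.7 CPM in Fos-high cells.

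Cholesterol synthesis genes had ratios above 0 in 14 of 15 measured genes in each library, with medians of 0.76 and 0.53, and Hsd17b7 passed 2-fold (59.9 and 49.1 against 16.1 and 14.8 CPM). Of the 15, 13 also had at least 20 CPM in the Fos-high cells, and 0 of these passed 2-fold. None of 5 measured Wnt ligands and modulators had a ratio above 0, although TMM scaling put Wnt11 above it in the wild-type library. Of the 5, 4 had at least 20 CPM in the members of both libraries. The other was under 20 CPM in at least 1 library, where it was measured through the Fos-high cells and could only come out lower. Dkk2, a Wnt antagonist that keeps the corneal surface from keratinizing, was 333 and 303 CPM in the members and 509 and 459 CPM in Fos-high cells.

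**Figure D3:**
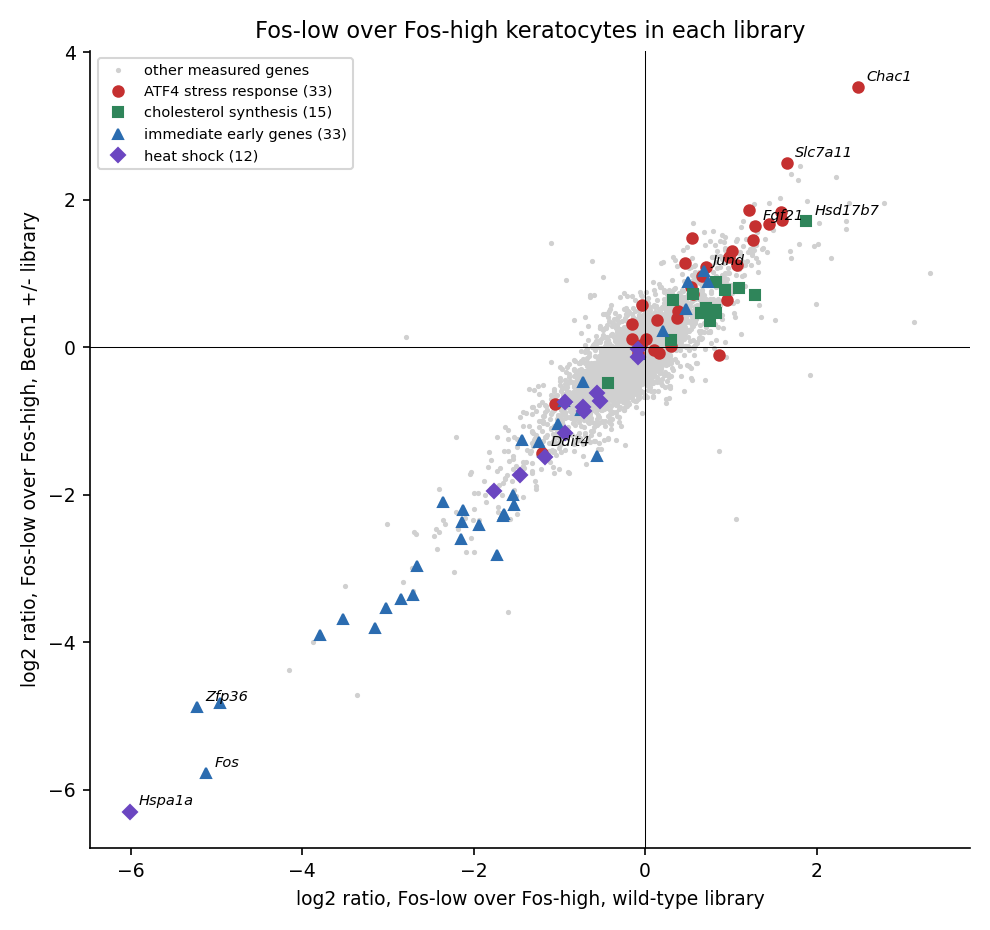
Log2 ratios of Fos-low over Fos-high keratocytes for each measured gene, wild-type library on the horizontal and Becn1 +/- library on the vertical axis, with 4 gene lists in colour; Gal is left out because it has 0 UMIs in wild-type Fos-high cells. ATF4 targets reach 2.48 and 3.53 (Chac1) in the upper right, and Hspa1a lies at -6.00 and -6.30 in the lower left.

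When the Kera-high keratocytes of both groups were divided by Fos into 5 ranges, levels differed between the ranges within the members as well as across the limit. In the heterozygote library Fgf21 was 597 CPM in the 378 cells with no Fos UMI, 450 CPM in 298 cells above 0 and below 500 CPM of Fos, 269 CPM in 50 cells at 500 to 1000, 265 CPM in 84 cells at 1000 to 5000 and 100 CPM in 134 cells at 5000 or more. In the wild-type library the corresponding levels were 685, 786, 550, 403 and 195 CPM in 89, 146, 28, 76 and 73 cells, so the highest was not in the cells without Fos. Thbs1 was 1686 and 1713 CPM in cells without Fos and 365 and 334 CPM at 5000 or more, and each step between them was downward in both libraries.

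Chac1 spanned the widest fold of the Fgf21, Thbs1, Cryab, Eif4ebp1 and Chac1 levels, from 236 and 273 CPM in cells without Fos to 18.8 and 9.11 CPM in the highest range. Hspa1a stayed at 8.14 to 17.2 CPM over the wild-type members' 3 ranges and reached 501 and 1304 CPM in the 2 ranges above the limit. Junb passed from 109 to 162 and 269 CPM within the wild-type members and to 1054 and 2543 CPM above. Dcn, in contrast, was 28182 CPM in wild-type cells without Fos and 28066 CPM in the highest range. Median depth was 12050 to 13142 UMIs over the wild-type ranges and 8190.5 to 9509.5 UMIs over the heterozygote ranges, and its part in these levels was not tested.

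**Figure D4:**
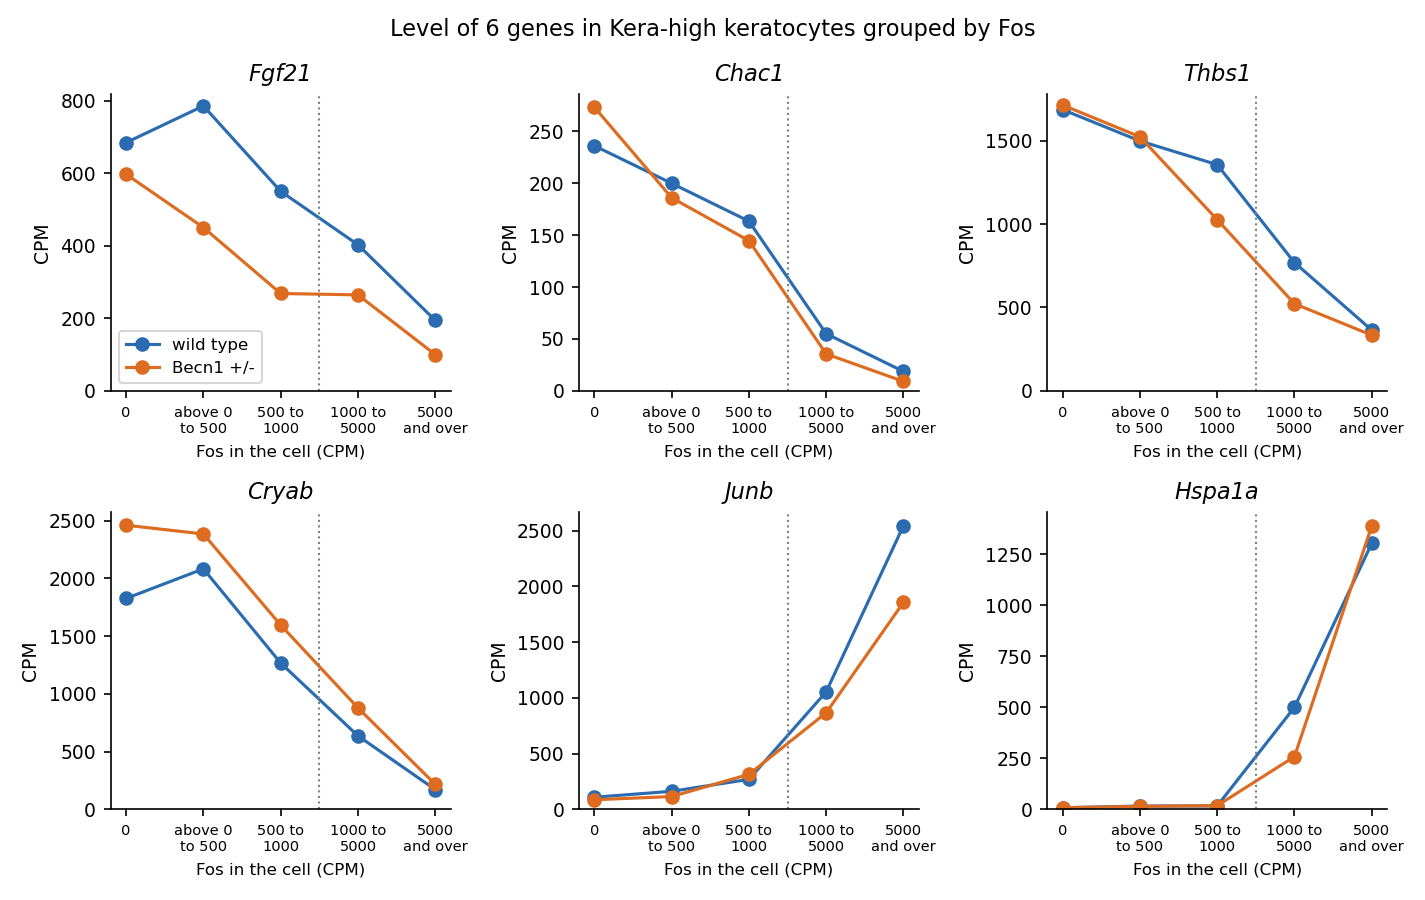
Levels of 6 genes in CPM from summed UMIs of Kera-high keratocytes grouped by the Fos level of the cell, with blue for the wild-type and orange for the Becn1 +/- library and a dotted line at the Fos limit of 1000 CPM. Thbs1 goes from 1686 and 1713 CPM at Fos 0 to 365 and 334 CPM at 5000 and over, and Hspa1a stays below 20 CPM to the left of the line.

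Fgf21 was spread unevenly over the members. It had no UMI in 81 of 263 wild-type members (30.8%) and 302 of 726 heterozygote members (41.6%), and lay above 1000 CPM in 57 (21.7%) and 118 (16.3%). The highest cell reached 7226 and 9453 CPM. The 27 and 73 cells with the most Fgf21 held 54.1% and 58.6% of the level summed over cells. When each cell was thinned to 5000 UMIs, 54.0% and 48.6% of the members had an Fgf21 UMI, against 47.0% and 32.1% of Fos-high keratocytes. The thinned shares were 3.68% and 6.73% in Kera-low stromal cells and 0.667% and 0.472% in Krt12-high epithelial cells. Without thinning, members had shares of 69.2% and 58.4% and epithelial cells 2.61% and 1.82%. Median depths were 12279 and 8362.5 UMIs in the members and 19589 and 14057 UMIs in the epithelial cells.

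Klb, which encodes beta-klotho, the co-receptor that FGF21 needs for signalling, had 0 UMIs in the members of both libraries, which allows up to 0.903 and 0.472 CPM. Fgfr1, the receptor it pairs with, was 376 and 355 CPM. Across members, the genes whose log2 level was most like that of Fgf21 among 2200 genes were Hk2, Gpha2, Psat1, Kera, Eif4ebp1 and Dlk1, with Pearson's r of 0.14 to 0.28 in the libraries. For Thbs1 they were Hif1a, Emp1, Eif4ebp1, Col1a2, Col1a1 and Mt2, with r of 0.27 to 0.40. These are correlations across the 263 and 726 cells of single libraries, which share library and depth, and those for Fgf21 are weak.

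The variance of thinned counts divided by their mean was 1.08 and 1.08 for the median gene and 10.5 and 10.7 for Fgf21. Cryab had 25.5 and 30.3, and the list of highest values also held Gsto1, Mt1, Gpha2, Apoe, Malat1, Ccl2, Angptl7, Igfbp2, Nupr1, Cxcl1, Mt2, Sat1 and Col1a1. Cryab and Apoe were higher in members above the library's median depth (2245 and 2668 CPM, 2950 and 4421 CPM) than in those at or below it (1465 and 1937 CPM, 1638 and 2887 CPM). Thbs1 was lower in the deeper cells (1434 and 1434 against 1694 and 1802 CPM). Fgf21 differed less (724 and 489 against 732 and 546 CPM).

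Several transcripts known from other corneal cells were read in the members. Aldh3a1, the aldehyde dehydrogenase called the corneal crystallin of mouse, was 2941 and 3072 CPM, and Tkt, transketolase, 918 and 1005 CPM. Both are also abundant in epithelium, at 11447 and 9896 CPM for Aldh3a1. Per 100 UMIs of Krt12, an epithelial keratin, Aldh3a1 had 447 and 316 in the members and 47.0 and 42.0 in epithelial cells, and Tkt 140 and 103 against 14.0 and 11.7. Genes known from epithelium varied on the same scale. Krt5 was 28.5 and 20.8 against 22.6 and 20.0, Sfn 52.5 and 45.2 against 36.0 and 36.1, Krt15 21.2 and 24.7 against 6.33 and 9.58, and Ifitm1 12.4 and 24.2 against 7.58 and 11.2. Krt12 chose both groups of cells, so these ratios are a description, and the part of epithelial RNA in Aldh3a1 and Tkt was not tested.

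Gpha2, a glycoprotein hormone subunit known as a marker of limbal epithelium, was 631 CPM (604 to 658) and 642 CPM (622 to 662) in the members. Its level was 523 and 512 CPM in Fos-high keratocytes, 124 and 216 CPM in Kera-low cells and 111 and 107 CPM in Krt12-high epithelial cells. The Gpha2 UMIs were concentrated, with 48 and 108 members holding at least 10 UMIs and 1 cell 204 and 122. Members with a Gpha2 UMI had more Fgf21 (859 and 586 CPM) than those without (503 and 412 CPM). Their Krt15, another limbal gene, was 182 against 65.2 CPM and 266 against 204 CPM. Without the cell of highest Krt15 in each library these were 74.6 against 65.2 CPM and 174 against 204 CPM, so the difference rested on 1 cell in each. Their Kera was 5475 against 5282 and 4757 against 4674 CPM. The part of limbal epithelial RNA in the Gpha2 level was not tested.

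Peptide and cytokine genes were held by few members. Tac1, the substance P precursor, was 184 and 206 CPM, with 72.1% and 75.5% of its UMIs in the top 5% of members. Gal, the galanin precursor, was 45.8 and 84.8 CPM from 4 and 24 cells, with up to 75 and 83 UMIs in a cell, and its level was 0.484 and 0.734 CPM in epithelial cells. Csf3, granulocyte colony-stimulating factor, was 207 and 165 CPM in the members against 20.5 and 82.5 CPM in Fos-high keratocytes. Lif, a cytokine of the interleukin 6 family, was 28.0 and 21.4 against 4.40 and 6.02 CPM. Lif was below the level for measured genes in this comparison and under 20 CPM in the Fos-high cells. Cxcl1 went the other way, at 282 and 108 CPM in the members against 854 and 1303.5 CPM. Of 6 measured cytokines and chemokines, 1 was at least 2-fold higher in the members and 1 (Cxcl1) at least 2-fold lower. Their median ratios were 1.72 and -0.02.

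The last comparison set heterozygote beside wild-type members. Becn1 itself (chromosome 11, 101285952 to 101302286, minus strand) was 31.6 CPM (25.9 to 38.3, 105 UMIs) in wild-type members and 35.4 CPM (30.9 to 40.4, 225 UMIs) in heterozygous ones, a ratio of 0.16 (-0.18 to 0.51). Because a 3′ tag can be read from an altered allele too, and the altered region is not named, the Becn1 level is no check of genotype. Of 4298 measured genes, 61 (1.42%) were at least 1.5-fold higher and 48 (1.12%) at least 1.5-fold lower in the heterozygote members. Of 12 measured autophagy genes, 0 passed 1.5-fold in either direction, with a median ratio of 0.03.

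The 12 highest ratios ran from 0.77 to 1.81. Pglyrp1, a peptidoglycan recognition protein, was 44.0 and 155 CPM, a ratio of 1.81 (1.56 to 2.07). A single cell held 71 of 146 wild-type and 319 of 982 heterozygote Pglyrp1 UMIs, and without both cells the levels were 22.8 and 105 CPM, a ratio of 2.19. The interferon-induced Ifitm1 was 81.3 and 235 CPM. Psca, Asprv1, BC100530, Upk3bl, Calml3, Plet1, Krt15 and Gsto1, which include markers of superficial and basal epithelium, and the peptide genes Npy and Gal completed the 12. Many of these were far more abundant in epithelium, where Pglyrp1 was 972 CPM in the wild-type library. The epithelial keratin Krt12, used in the choice, was 657 and 972 CPM in the members.

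Of the 61 higher genes, 39 (63.9%) had at least 5 times the members' level in Krt12-high epithelial cells, compared with 97 of all 4298 (2.26%) and 2 of the 48 lower genes (4.17%). All 8 measured epithelial markers had ratios above 0. With a Krt12 limit of 1000 CPM, which left 238 and 428 cells, 41 of the 61 were still at least 1.5-fold higher, among 56 in all, and higher genes were 48.3% of those past 1.5-fold in place of 56.0%. Of the 12 highest, 11 stayed past 1.5-fold, and Krt15 was at 0.18. A single cell held 228 of the 462 wild-type Krt15 UMIs, and without the highest cell of each library the Krt15 ratio was 1.39. For Gsto1 that ratio was 1.09. With Scrublet doublets removed Plet1 was at 0.28. The part of epithelial RNA in these ratios was not tested further.

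The 12 lowest ratios ran from -1.86 to -0.70 and held 3 chemokines. Cxcl2, a neutrophil attractant, was 181 and 49.9 CPM, Cxcl1 282 and 108 CPM, and Ccl2, a monocyte attractant, 289 and 162 CPM. All 7 measured cytokines and chemokines had ratios below 0 and 4 were at least 1.5-fold lower, with a median of -0.66. Their UMIs came from few cells. In the wild-type library 97.5% of Cxcl2 UMIs were in the top 5% of members, and 1 cell held 145 of 602. Without the highest cell of each library the ratio of Cxcl2 was -1.87 and that of Cxcl1 -1.03.

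Mmp3 was 116 and 37.0 CPM, but 1 wild-type cell held 203 of 386 UMIs, and its ratio was -0.99 without the highest cell of each library and -0.58 with Scrublet doublets removed. The others included Tnmd, an antiangiogenic membrane protein of tendon, the Notch target Hes1, the hexokinase Hk2, Ier3, tissue factor (F3), Pdia4 and Usp50. Tnmd was 219 and 100 CPM and Hes1 76.8 and 39.2 CPM. Of the 48 lower genes, 18 (37.5%) had at least 2 times the members' level in Kera-low stromal cells, compared with 174 of 4298 (4.05%) and 6 of the 61 higher genes (9.84%). With the Krt12 limit of 1000 CPM 11 of the 12 stayed past 1.5-fold, and Ccl2 was at -0.37.

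Of the lipid carriers, 3 of 4 measured genes (Apoe, Clu and Fabp5) were at least 1.5-fold higher. Apoe, the main lipid carrier of glia and stroma, was 2388 CPM (2336 to 2441) and 3792 CPM (3744 to 3840), a ratio of 0.67 (0.63 to 0.70), and its level in epithelial cells was 151 and 196 CPM. ATF4 targets had 0 of 33 genes past 1.5-fold and a median of 0.05, although Nupr1, a small stress-induced chromatin protein, was 6984 and 9321 CPM, a ratio of 0.42. Fgf21 had a ratio of -0.51 (-0.58 to -0.43), short of 1.5-fold. The immediate early genes had a median of -0.40, with 2 of 31 (Ier3 and Socs3) at least 1.5-fold lower.

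Matrix genes were nearly level between the genotypes. None of 7 small leucine-rich proteoglycans, 4 keratan sulfate enzymes, 16 collagen chains or 18 collagen processing genes passed 1.5-fold. Kera and Dcn, among the 7, chose the cells of both genotypes. Kera was at -0.19 (-0.22 to -0.17), Lum at -0.02, Thbs1 at 0.04 (-0.01 to 0.09) and Chac1 at 0.13. Ribosomal proteins of small size were all below 0, with a median of -0.27 over 10 genes and none past 1.5-fold. The heterozygote library was shallower per cell, and the part of depth in these ratios was not tested.

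**Figure D5:**
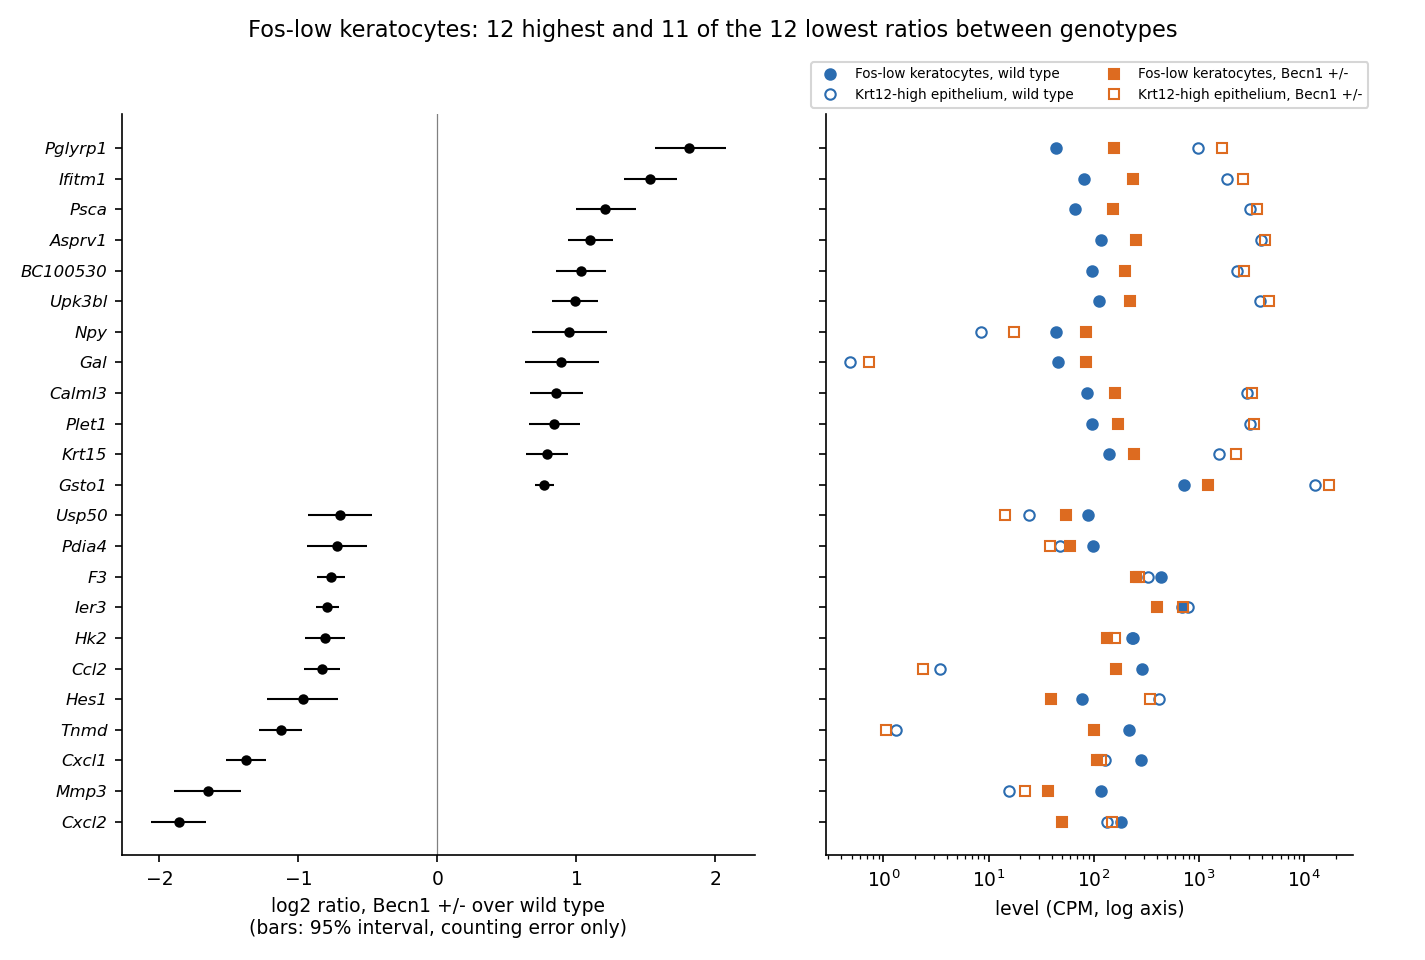
The 12 highest and 11 of the 12 lowest log2 ratios of Becn1 +/- over wild-type Fos-low keratocytes with 95% intervals of counting error (left), and the levels of the same genes in CPM on a log axis (right), filled symbols for Fos-low keratocytes and open symbols for Krt12-high epithelial cells. Pglyrp1 has the highest ratio, 1.81, and is at 44.0 and 155 CPM in the keratocytes, below its 972 CPM in wild-type epithelium; Cxcl2 has the lowest, -1.86.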

How the data were processed

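Gene counts per cell barcode were deposited by the authors as whole-number UMI counts, not normalized, from Cell Ranger 2.1.1 and build mm10, per the submitters' processing notes. Annotation release and cell calling: not given in the sources used here. All 27998 features were used as deposited. Members and gene lists were chosen with earlier results of these data known. UMIs were summed over the cells of a group in each library and scaled to CPM; exact Poisson and Clopper-Pearson intervals at 95% cover counting error only. With 1 library per genotype no test was made. Measured genes had a mean of at least 20 CPM over the groups compared. Differences are counted past 2-fold in both libraries between cell groups and past 1.5-fold between genotypes. Named genes were all listed genes and, at a mean of at least 50 CPM, the 12 highest and 12 lowest ratios of each comparison (between cell groups by the smaller ratio of the libraries), the 15 highest over all other barcodes, the 6 most correlated with Fgf21 and Thbs1 on log2(CPM + 10), and the 15 of highest variance over mean. Leaving out the highest cell of a gene, and the counts of list genes above 20 CPM in both groups, were added after the data were seen. The ratio script was tested on simulated counts. Cells were thinned to 5000 UMIs for shares of cells with a UMI. Doublets were marked with Scrublet in scanpy 1.11.5 and kept, and an alternative removed them. TMM factors came from edgeR 4.0.16. Other steps used Python 3.11.15, numpy 2.4.6, scipy 1.17.1 and pandas 2.3.3. Positions are from GENCODE M21, where 27645 features matched by identifier, and promoter windows from RefSeq on GRCm38.p6. Alternatives are given in the closing section. Some named genes are not reported here.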

Additional observations from a re-analysis of the deposited data

Results flagged for a closer look

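Between Fos-low and Fos-high keratocytes, Cxcl2 and Npy pointed in opposite directions in the libraries. Cxcl2, a neutrophil attractant, had a log2 ratio of 1.07 (wild type) and -2.33 (heterozygote). Npy, the neuropeptide Y precursor, had -0.64 and 0.68. With 1 library per genotype, the difference between the libraries was not tested. Cxcl2 was counted in 29 and 73 members.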

How the results depend on the processing

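The members' share of heterozygote barcodes (14.1%) became 10.2% with a common minimum of UMIs, 13.1% with a Kera limit of 2000 CPM, 13.1% with a Fos limit of 500 CPM and 8.3% with a Krt12 limit of 1000 CPM. The wild-type share (10.5%) was 10.5%, 10.1%, 9.35% and 9.47% under the same settings, above the heterozygote share under the first and the last. The cytokine medians against Kera-low cells (-2.40 and -3.70) were -0.92 and -0.95 with the common minimum. Of the 11 genes behind the main medians, 5 were measured only through the Kera-low cells and could only come out lower, so these medians draw no conclusion. Between genotypes, the counts of higher and lower genes were 94 and 109 with cells thinned to 5000 UMIs, 25 and 20 with a mean of at least 50 CPM, and 1265 and 1794 with no filter on the mean. Between Fos-low and Fos-high keratocytes they were 122 and 115 with TMM, 43 and 98 at 50 CPM, and 184 and 1095 with no filter. Between Fos-low and Kera-low cells they were 236 and 251 with TMM, 84 and 171 at 50 CPM, and 281 and 1591 with no filter. The filters differ in the number of genes counted; for the other settings the cause was not tested. No value past its fold changed sign under the alternatives run. Below the fold, TMM moved genes across 0 in the comparison by Fos, among them Atf4, Hspb1, Bag3 and, in the wild-type library, Wnt11. No paired analysis was possible because each genotype was a single library. No replicate could be left out for the same reason. Depth limits genes near 20 CPM, and no interval covers the spread between animals.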
